A study of Mus musculus with 10 samples.

Results

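The Pcl3 binding list of mouse embryonic stem cells (ESCs) holds 5242 sites, and 907 of them (17.3%) had no Suz12 binding site. A site was assigned to this group when no center of a Suz12 site lay within 2 kb of its own center on the same chromosome and when it shared no base with a Suz12 site. These sites were therefore selected on measured values, the positions in both binding lists, and their distance to Suz12, width and strength are given below as descriptions. They are called lone Pcl3 sites here, and the other 4335 sites are called Suz12-associated Pcl3 sites. A further 55 sites with a Suz12 center more than 2 kb away were left among the Suz12-associated sites because a broad Suz12 site overlapped them. The paper states that almost all Pcl3-TAP regions coincided with Suz12 targets. It assessed that overlap at several p-value cutoffs, and the Suz12 cutoff was not varied here.

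PRC2, a Polycomb repressive complex, places 3 methyl groups on histone H3 at lysine 27 (H3K27me3), a mark of silenced developmental genes. Its core comprises the methyltransferase Ezh1 or Ezh2, Eed and Suz12, and the Polycomb-like proteins, of which Pcl3 (also called Phf19) is a member, are accessory subunits with a Tudor domain and PHD fingers. In ESCs, PRC2 occupies mainly CpG islands, stretches of DNA that keep a high density of CpG dinucleotides and often cover gene starts. A Polycomb-like protein mapped away from Suz12 therefore raises the question of what kind of DNA it was mapped to.

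Pcl3 was mapped by ChIP-seq with the FlagM2 antibody in E14 ESC clones that expressed a TAP-tagged Pcl3 transgene together with a Pcl3 shRNA that does not recognize it. There were 2 such Pcl3-TAP libraries, with shRNA 6 and shRNA 7, and 1 input DNA library for each, but 1 Pcl3 site list, so the agreement of the clones cannot be examined. Suz12 was mapped with the same antibody in 1 library of Suz12Suz12TAP/+ ESCs, a line derived from a gene trap in which the endogenous Suz12 locus encodes a TAP-tagged protein, expressing scramble shRNA. The H3K27me3 list used below holds sites with less H3K27me3 in Suz12Suz12TAP/+ cells expressing Pcl3 shRNA than in those expressing scramble shRNA, with 1 library each. Pcl3 and Suz12 were thus mapped in different ESC lines, Pcl3 from a transgene. The lists carry 1 p-value per site and no reads, so the depth is unknown, a Suz12 site missing from the list may be a weak one, and the cells could not be checked against marker genes. Every test below is over sites, which are not replicates, and compares these libraries only.

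To show the kind of DNA involved, the central 200 bases of several sites are printed from the mm9 plus strand, with each CpG in capitals. The first 4 are the lone sites of smallest p-value within 1 kb of the start of a protein-coding gene, the next 2 are the lone sites of smallest p-value more than 10 kb from any such start, and the last is a broad Suz12-associated site with a p-value of 0.
A930004D18Rik, chr2:17958851-17959050: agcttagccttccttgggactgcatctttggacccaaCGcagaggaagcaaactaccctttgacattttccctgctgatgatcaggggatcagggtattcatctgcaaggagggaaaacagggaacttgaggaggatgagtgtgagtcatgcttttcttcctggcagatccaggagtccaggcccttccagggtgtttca
A830031A19Rik, chr11:23974326-23974525: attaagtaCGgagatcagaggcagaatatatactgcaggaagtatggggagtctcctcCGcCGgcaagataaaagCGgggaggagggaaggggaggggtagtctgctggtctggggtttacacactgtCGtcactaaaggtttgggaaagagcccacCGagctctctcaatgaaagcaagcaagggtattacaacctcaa
Otop1, chr5:38666251-38666450: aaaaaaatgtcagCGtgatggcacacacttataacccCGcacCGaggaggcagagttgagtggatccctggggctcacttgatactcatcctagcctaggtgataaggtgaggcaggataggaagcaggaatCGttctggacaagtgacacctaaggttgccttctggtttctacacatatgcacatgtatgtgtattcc
Ppil6, chr10:41210551-41210750: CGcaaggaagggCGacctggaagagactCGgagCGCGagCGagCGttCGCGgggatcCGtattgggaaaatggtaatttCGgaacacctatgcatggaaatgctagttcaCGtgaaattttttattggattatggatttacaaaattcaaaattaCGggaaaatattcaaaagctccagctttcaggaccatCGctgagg
Nr2f2, chr7:77488326-77488525: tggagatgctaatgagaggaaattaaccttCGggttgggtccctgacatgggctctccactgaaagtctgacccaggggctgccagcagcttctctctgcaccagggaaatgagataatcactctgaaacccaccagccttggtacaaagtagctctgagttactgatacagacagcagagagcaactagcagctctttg
Sfmbt2, chr2:10277401-10277600: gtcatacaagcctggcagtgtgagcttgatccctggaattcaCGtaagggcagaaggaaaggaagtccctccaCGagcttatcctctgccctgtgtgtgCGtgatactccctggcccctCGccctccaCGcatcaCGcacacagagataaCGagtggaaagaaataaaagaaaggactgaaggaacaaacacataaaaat
Hoxc9, chr15:102804101-102804300: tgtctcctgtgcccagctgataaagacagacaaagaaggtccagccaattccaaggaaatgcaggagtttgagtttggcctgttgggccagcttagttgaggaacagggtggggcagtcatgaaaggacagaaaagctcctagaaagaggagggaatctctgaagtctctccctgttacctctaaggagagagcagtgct
The central 200 bases held 1 CpG at the lone site 23196 bp from the start of Nr2f2, 1 at A930004D18Rik, 4 at Otop1, 6 at A830031A19Rik, 7 near Sfmbt2 and 14 at Ppil6. The window in the Hoxc cluster held 0, but this site is 29100 bp wide, and the center of so broad a site is only a small part of it.

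Lone Pcl3 sites lay mainly in CpG-poor DNA away from gene starts. In the central 500 bp, the median CpG density was 1.4 CpG per 100 bp (quartiles 1 and 2.8) at lone sites and 7 (quartiles 4 and 10) at Suz12-associated sites. The median GC content was 47.8% and 62.4%, respectively. A density above the median of all Pcl3 sites was found at 135 of 907 lone sites (14.9%, 95% Wilson interval 12.7 to 17.4%) and at 2459 of 4335 Suz12-associated sites (56.7%, interval 55.2 to 58.2%). The odds ratio was 0.133 by a two-sided Fisher's exact test, with an adjusted p = 1.18e-125. CpG island criteria, set here at 50% G and C or more with a CpG ratio (observed over expected) above 0.6, were met by 158 lone sites (17.4%, interval 15.1 to 20.0%) and by 2857 Suz12-associated sites (65.9%, interval 64.5 to 67.3%). The odds ratio was 0.109 (95% interval 0.0909 to 0.131, Fisher's exact test, adjusted p = 4.19e-163), and the island share was lower at lone sites on 20 of 20 chromosomes with at least 10 sites of each kind. Away from gene starts, islands were found at 37 of 767 lone sites (4.82%) and at 1163 of 2302 Suz12-associated sites (50.5%), with an odds ratio of 0.0496. At gene starts the island share was not lower at lone sites. It was 86.4% of 140 lone sites and 83.3% of 2033 Suz12-associated sites, given without a test.

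**Figure D1:**
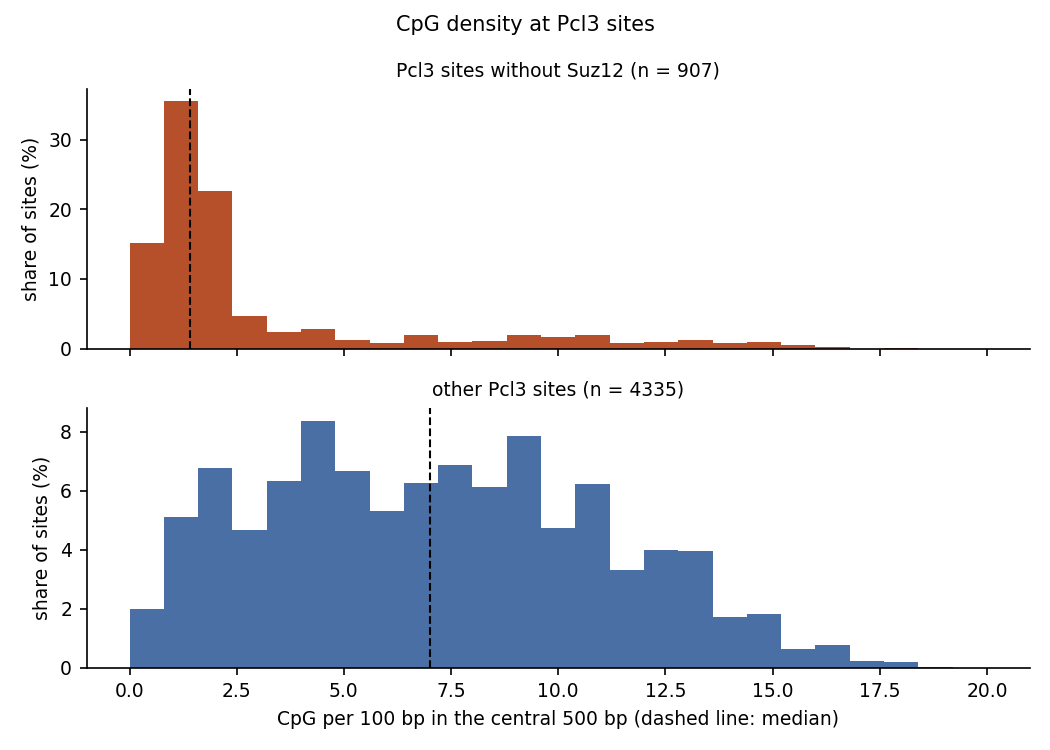
CpG per 100 bp in the central 500 bp (horizontal axis) against the share of sites in percent (vertical axis), for 907 lone Pcl3 sites above and 4335 Suz12-associated sites below, with the median as a dashed line. Most lone sites lie in a narrow peak around the median of 1.4 with a long thin tail, whereas the Suz12-associated sites spread widely around a median of 7.

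With respect to genes, 140 lone sites (15.4%, interval 13.2 to 17.9%) had a protein-coding gene start within 1 kb of their center, compared with 2033 Suz12-associated sites (46.9%, interval 45.4 to 48.4%). The odds ratio was 0.207 (interval 0.171 to 0.250, Fisher's exact test, adjusted p = 3.22e-75). The median distance to the nearest start was 9692 bp for lone sites and 1145 bp for Suz12-associated sites. When sites of like CpG density were compared, within deciles of that density, the gene start difference no longer passed the test (Mantel-Haenszel odds ratio 0.826, interval 0.639 to 1.07, p = 0.162 over n = 5242 sites).

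Intergenic centers were found at 482 lone sites (53.1%, interval 49.9 to 56.4%) and at 1183 Suz12-associated sites (27.3%, interval 25.98 to 28.6%), which gave 3.02 as the odds ratio (adjusted p = 6.55e-49, Fisher's exact test). Within deciles of CpG density it was 1.61 (Mantel-Haenszel, p = 1.07e-07, n = 5242). Introns held nearly equal shares, 33.6% of lone and 32.7% of Suz12-associated centers, with intervals that overlap. Coding exons held 5.51% of lone centers against 20.9%, untranslated regions 6.84% against 15.5%, and exons annotated as neither coding nor untranslated 0.882% against 3.60%.

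**Figure D2:**
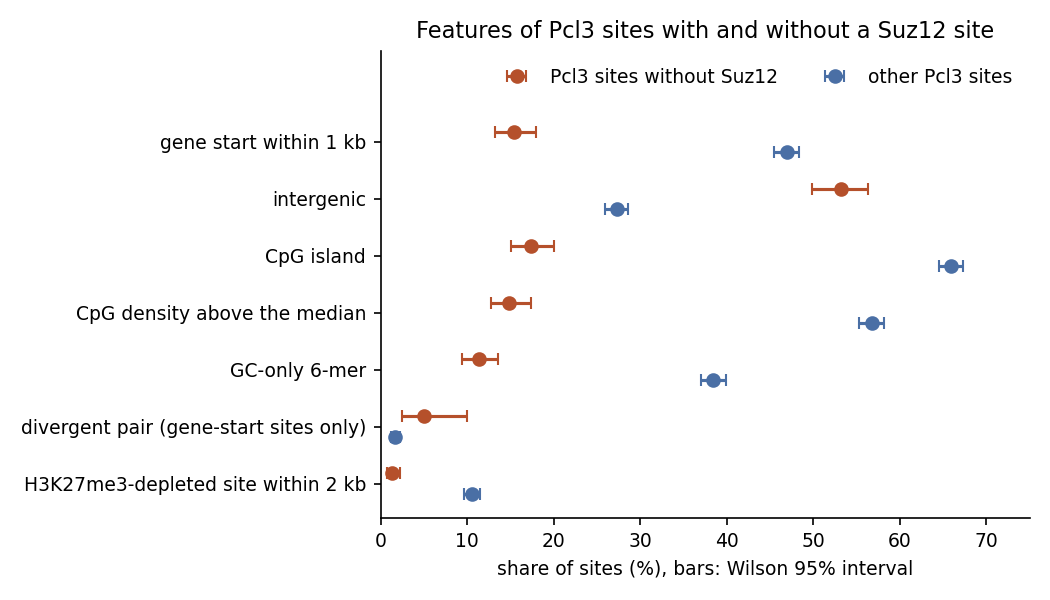
Share of sites in percent (horizontal axis) with each feature (vertical axis) for lone Pcl3 sites and Suz12-associated Pcl3 sites, with Wilson 95% intervals. Lone sites are lower for gene starts, CpG islands, CpG density, the GC-only 6-mer and H3K27me3-depleted sites, and higher for intergenic position and divergent gene pairs (5.00% against 1.62%).

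Weak sites made up most of the group. None of the 907 lone sites was among the 208 Pcl3 sites with a deposited p-value of 0, and the median −log10 p-value was 9.20 (quartiles 7.77 and 13.2) against 19.8 (quartiles 10.4 and 50.1) for Suz12-associated sites. Lone sites had a median width of 600 bp and at most 3250 bp, compared with a median of 1000 bp and a maximum of 81300 bp. Of the 10 strength classes of about equal size, the weakest held 179 lone sites among 523 (34.2%) and the second weakest 205 of 524 (39.1%), whereas the strongest held 0 of 524. The low island share was not limited to weak sites: it was 25.1% of lone sites against 56.1% of Suz12-associated sites in the weakest class, and 1 of 51 against 75.7% in the seventh. Within deciles of strength the Mantel-Haenszel odds ratio for CpG islands was 0.126. Restricted to the 259 lone and 2939 Suz12-associated sites with p-values up to 1e-12, it was 0.0270.

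**Figure D3:**
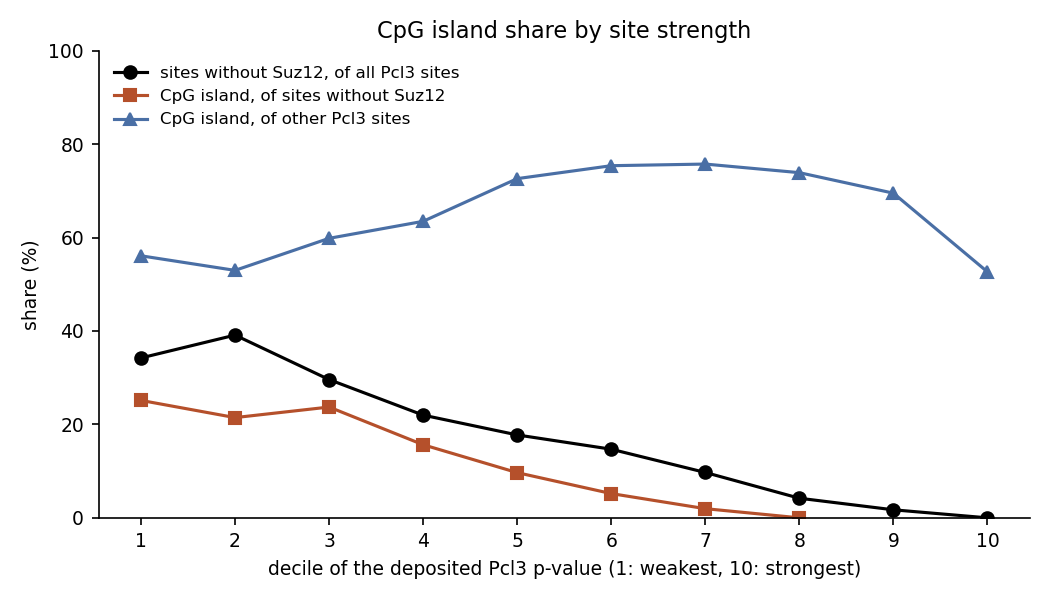
Share in percent (vertical axis) by decile of the deposited Pcl3 p-value, from weakest to strongest (horizontal axis): lone sites among all Pcl3 sites, CpG islands among lone sites (deciles with at least 20 of them) and CpG islands among Suz12-associated sites. The lone share is 39.1% in the second decile and 0 in the tenth, and islands are rarer among lone sites than among Suz12-associated sites in each decile drawn.

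The distance to the nearest Suz12 center separated the lone sites into those beside Polycomb domains and those far from them, a division made after the values were seen and given without a test. Its median was 12400 bp, with quartiles at 3475 and 99988 bp. At the limit itself, 3 lone sites nearest Hoxb9, Hoxc12 and Mecom lay 2025 bp from a Suz12 center, and Suz12-associated sites nearest Tbx3 and Sox14 lay 2000 bp from one. A total of 345 lone sites (38.0%) lay between 2 and 5 kb, 92 (10.1%) between 5 and 10 kb, 161 (17.8%) between 10 and 50 kb, 82 (9.04%) between 50 and 100 kb, and 227 (25.03%) farther away. In the same order the island share was 1.74%, 6.52%, 24.8%, 30.5% and 35.7%, and the gene start share was 2.90%, 2.17%, 21.7%, 22.0% and 33.0%.

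**Figure D4:**
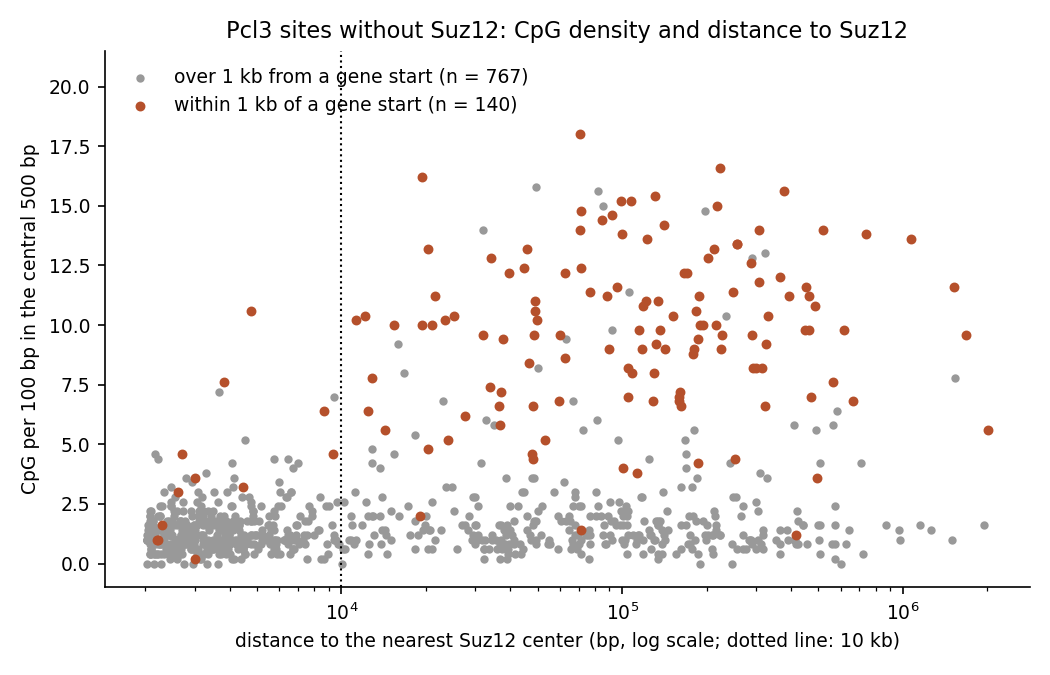
Each point is 1 of 907 lone Pcl3 sites, placed by the distance from its center to the nearest Suz12 center in bp (horizontal log axis) and its CpG per 100 bp in the central 500 bp (vertical axis), with the 140 sites at gene starts in colour and a dotted line at 10 kb. Sites within 10 kb lie almost all at low CpG density, whereas CpG-rich sites at gene starts appear beyond that line beside a second band of CpG-poor sites.

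The 437 lone sites within 10 kb of a Suz12 center were almost all CpG-poor flanks of Suz12 sites. Neither a CpG island nor a gene start was present at 417 of them, and 12 met the island criteria. Another Pcl3 site that was itself Suz12-associated lay within 10 kb of 397 (90.8%). The nearest Suz12 site had a Pcl3 site within 2 kb in 367 cases (84.0%, interval 80.2 to 87.1%), whereas 44.9% of all Suz12 sites did. It was in the list of Suz12 sites depleted by Pcl3 knockdown in 376 cases (86.0%, interval 82.5 to 89.0%), compared with 64.5% of all 8876 Suz12 sites. Most of these neighbours had Pcl3, and the paper reports a similar depleted share among all sites bound by both Suz12 and Pcl3. The share is thus not particular to Suz12 sites beside lone sites. Several lone sites can share 1 Suz12 neighbour, so these counts are not independent.

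Of the 12 lone sites with the smallest p-values, 10 were such flanks. The strongest and widest lay at chr7:77486801-77490050 (mm9, deposited p-value 2.73e-109, 3250 bp), in intergenic DNA 23196 bp downstream of the start of Nr2f2, which encodes an orphan nuclear receptor of heart and vessel development. Its nearest Suz12 center was 2675 bp away and its center held 1 CpG per 100 bp. The next lay 8650 bp downstream of the start of Foxd1, a forkhead factor of kidney stroma (chr13:99132101-99133600, deposited p-value 9.40e-80), and 7901 bp upstream of the start of Hoxa13, the most posterior Hoxa gene (chr6:52217651-52219900, deposited p-value 4.30e-77). An intron of A930004D18Rik held a site 414 bp past its start (chr2:17958101-17959800, deposited p-value 3.46e-70) with 0.2 CpG per 100 bp. The center of a site at chr11:112647551-112648950 (deposited p-value 9.08e-61) fell in an untranslated region of Sox9, a regulator of cartilage and gonad development. The remaining 5 lay near Gm17649 in the Hoxc cluster, in an intron of Rgma, and in intergenic DNA nearest Gm9953, Gadd45g, a growth arrest gene, and Polg, the mitochondrial DNA polymerase. Their Suz12 distances ran from 2100 bp at Gm17649 to 6250 bp at Gm9953.

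The other 2 of the 12 lay farther from Suz12. The site at chr2:10276251-10278750 (deposited p-value 9.17e-77) was 17200 bp from the nearest Suz12 center, in an intron of Gm13261 and 14637 bp upstream of the start of Sfmbt2, an imprinted gene for a Polycomb group protein. The site at chr14:49324651-49326900 (deposited p-value 1.71e-62) was 32300 bp from Suz12, in intergenic DNA 38456 bp upstream of the start of Otx2, a homeobox gene of the forebrain and an early regulator of pluripotency exit.

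Some lone sites came in strings. The 907 sites formed 672 groups when sites within 10 kb of each other were joined. In 534 of these groups the site stood alone, and 52 groups had 3 or more sites. Sfmbt2 was the nearest gene of 11 lone sites, the highest number for any gene, which spanned chr2:10253151-10289850 and lay 5150 to 41275 bp from Suz12. Of the 8 sites nearest Otx2, 6 lay within chr14:49323351-49333700, 30100 to 39050 bp from Suz12. Beside Nt5e, which encodes an ectonucleotidase, 8 lone sites flanked the gene start on both sides, from 9822 bp upstream to 8328 bp downstream, with p-values from 7.66e-08 down to 1.45e-18. Another 8 lay in a row at chr5:75341951-75352800, in intergenic DNA and in Gm6116, with Suz12 distances that grew from 2075 to 12275 bp. Pax3, a regulator of neural crest and muscle, was nearest to 8 lone sites, and Hoxb13 to 7. These loci were picked for their number of sites after the values were seen.

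Beyond 10 kb from Suz12 there were 470 lone sites, and they were of different kinds. Neither a CpG island nor a gene start was present at 313 of these, with a median of 1.2 CpG per 100 bp and a median distance of 45206 bp to a gene start. CpG islands at gene starts accounted for 117, with a median of 10.2 CpG per 100 bp. Taken around the gene start, the median CpG density was 9.2 at the 129 CpG island starts with a lone site within 1 kb and 9.7 at the 1572 with a Suz12-associated site. Among lone sites with p-values up to 1e-12, the farthest from Suz12 lay in an intron of Lrrtm4, a synaptic adhesion gene, 1495475 bp from the nearest Suz12 center (chr6:80496251-80497300, deposited p-value 2.60e-20). The next in that order were an intergenic site nearest Gm765 (868275 bp, deposited p-value 5.71e-13), one in the untranslated region at the start of Angpt1, an endothelial growth factor (493675 bp, deposited p-value 9.56e-19), one in an intron of Sox5 (419275 bp, deposited p-value 4.44e-22) and one in an intron of Thbs2, a matrix thrombospondin (411900 bp, deposited p-value 1.57e-31).

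The strongest lone sites at CpG island gene starts are given next as examples. They are taken by p-value down to Tardbp, after the group had been formed, and no shared function was tested. The smallest p-value was at Rictor, a subunit of the mTORC2 kinase complex (chr15:6657451-6658600, deposited p-value 1.70e-22), 166150 bp from Suz12 and with 12.2 CpG per 100 bp. Next came Rbm33 (deposited p-value 1.47e-18, 107150 bp from Suz12), Epdr1 (deposited p-value 8.42e-18, 3825 bp) and Exoc1, a subunit of the exocyst (deposited p-value 1.59e-17, 128500 bp). Wee1, a kinase that holds back mitosis, had a p-value of 2.01e-14, and Cnot10, a subunit of the CCR4-NOT deadenylase, 3.06e-14. Ints3 of the Integrator complex, Nbn of the double-strand break sensor, Morf4l1, a chromodomain protein, and Tardbp, an RNA-binding protein, had p-values from 2.25e-13 to 3.19e-12. Plcb4 (deposited p-value 1.46e-13), Slc25a31 (2.25e-13), Rimklb (1.65e-12) and Esco1 (2.59e-12) complete the order down to Tardbp. The median −log10 p-value was 8.39 at the 117 CpG island gene starts more than 10 kb from Suz12 and 10.3 at the 437 lone sites within 10 kb.

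Promoter motifs distinguished these gene starts from those with Suz12. The sequences below are 100 bases of the mm9 plus strand around the first match to 1 of 3 motifs. They come from lone sites at CpG island gene starts, leaving out windows that touch an untranslated region. Their deposited p-values ran from 3.06e-14 at Cnot10 to 3.55e-08 at Tmem131, a weak site. Capitals mark CCGGAAG, bound by ETS factors (Cnot10 and Nbn), AAGATGGCG, bound by YY1 (Tmem131), and GCGCATGC, the core bound by NRF1 (Slc25a31 and Ints3), or their reverse complements. These 3 motifs are typical of the promoters of broadly expressed genes.
Cnot10, chr9:114549280-114549379: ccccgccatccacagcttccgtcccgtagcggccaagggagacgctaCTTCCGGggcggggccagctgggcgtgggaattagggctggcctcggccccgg
Nbn, chr4:15885299-15885398: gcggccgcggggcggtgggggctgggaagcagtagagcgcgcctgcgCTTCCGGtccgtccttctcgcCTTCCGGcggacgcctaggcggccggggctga
Tmem131, chr1:36996673-36996772: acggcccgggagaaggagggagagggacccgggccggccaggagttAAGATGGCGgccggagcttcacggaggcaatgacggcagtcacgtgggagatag
Slc25a31, chr3:40512637-40512736: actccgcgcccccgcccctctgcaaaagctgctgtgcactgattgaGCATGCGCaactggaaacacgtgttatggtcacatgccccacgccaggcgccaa
Ints3, chr3:90237665-90237764: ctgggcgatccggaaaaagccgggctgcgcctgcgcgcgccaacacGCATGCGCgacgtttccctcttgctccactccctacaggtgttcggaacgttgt
CCGGAAG was present on either strand in the central 500 bp of 44 of 140 lone sites at gene starts (31.4%, interval 24.3 to 39.5%) and of 121 of 2033 Suz12-associated sites at gene starts (5.95%, interval 5.00 to 7.07%). The odds ratio was 7.24 (interval 4.85 to 10.8, Fisher's exact test, p = 3.17e-17 adjusted over 11 motifs). AAGATGGCG was found at 7 lone (5.00%) and 7 Suz12-associated (0.344%) gene start sites (Fisher's exact test, adjusted p = 5.13e-05), and GCGCATGC at 12 (8.57%) and 33 (1.62%, adjusted p = 5.35e-05). The E-box CACGTG (16.4% against 9.20%, Fisher's exact test, adjusted p = 0.0300) and ATTGGC, the NF-Y core on 1 strand or the other (16.4% against 10.1%, adjusted p = 0.0493), also passed the test. The split into gene start sites was added after the data had been seen.

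Of all 22367 protein-coding gene starts, 14.4% held CCGGAAG, 2.88% AAGATGGCG, 3.89% GCGCATGC, 10.4% CACGTG and 20.7% ATTGGC in the 500 bp around the start. Among CpG island gene starts with no Pcl3 site within 1 kb, 27.2% of 8949 held CCGGAAG, 6.10% AAGATGGCG and 7.53% GCGCATGC. The corresponding values were 37.2%, 6.20% and 10.1% at the 129 CpG island gene starts with a lone site within 1 kb, and 6.93%, 0.636% and 2.99% at the 1572 with a Suz12-associated site. For these 3 motifs the values at gene starts with lone sites lay nearer to those without Pcl3 than to those with Suz12. For GCGCGC they lay nearer to those with Suz12, at 55.04% against 59.9% with a Suz12-associated site and 44.8% with no Pcl3 site. These shares are descriptions, given without a test.

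For 3 GC-rich motifs no difference between the gene start sites passed the test. GCGCGC occurred at 55% of lone and 49.2% of Suz12-associated gene start sites (odds ratio 1.26, interval 0.895 to 1.78, Fisher's exact test, adjusted p = 0.300), GGGCGG, the GC box, at 74.3% and 70.2% (adjusted p = 0.414), and TGCCGC, the core bound by ZFP57, at 40.7% and 42.7% (adjusted p = 0.660). Over all sites the same 3 motifs were rarer at lone sites by Fisher's exact tests, GCGCGC at 11.4% against 38.4% (adjusted p = 5.22e-63), GGGCGG at 21.7% against 57.9% (adjusted p = 4.48e-90) and TGCCGC at 12.2% against 35.3% (adjusted p = 2.41e-47). GCGCGC can overlap itself, and a match to any of these letters is not a bound site.

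A pair of motifs was more frequent at lone sites. ATTTGCAT, the octamer bound by Oct factors, was present at 23 lone sites (2.54%, interval 1.70 to 3.78%) and 57 Suz12-associated sites (1.31%, interval 1.02 to 1.70%; Fisher's exact test, adjusted p = 0.0231). The CTCF core was found at 8 (0.882%) and 10 (0.231%; Fisher's exact test, adjusted p = 0.0183). The number of sites behind both is small. For the remaining motifs over all sites the adjusted p-values ran from 0.0507 for ATTGGC to 0.605 for TGACGTCA, the cyclic AMP response element, at 3 lone and 22 Suz12-associated sites.

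**Figure D5:**
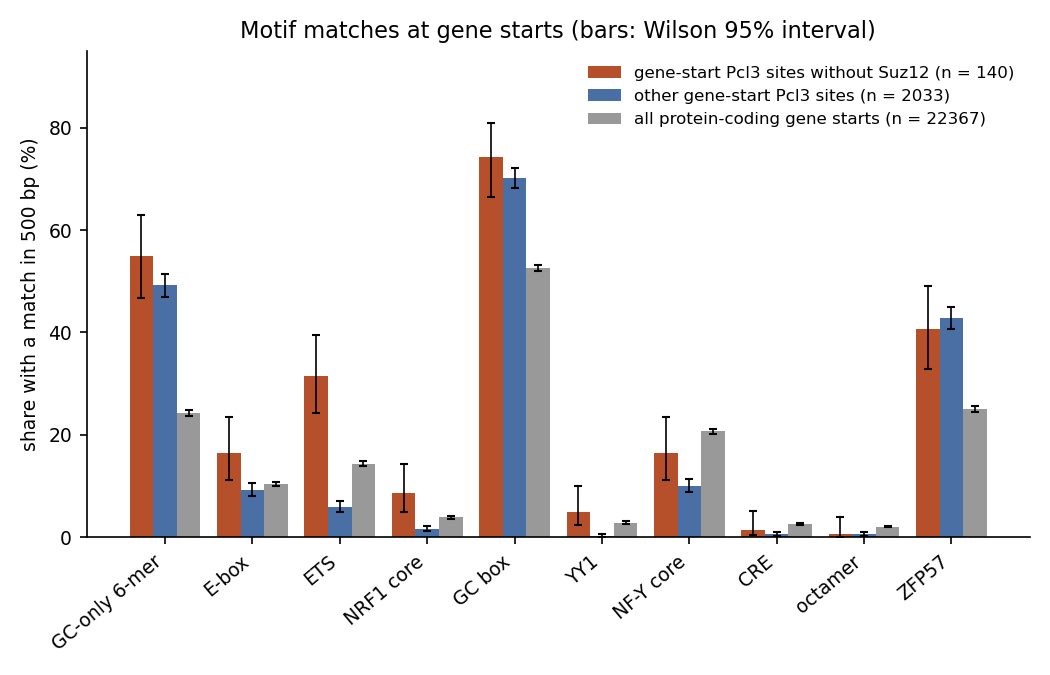
Share in percent (vertical axis) of lone Pcl3 sites at gene starts (n = 140), Suz12-associated Pcl3 sites at gene starts (n = 2033) and all protein-coding gene starts (n = 22367) with a match to each motif (horizontal axis) in 500 bp, with Wilson 95% intervals. The ETS motif stands at 31.4%, 5.95% and 14.4%, and YY1 and NRF1 motifs follow the same order, whereas the intervals of both groups of Pcl3 sites overlap for the GC-only 6-mer, the GC box and ZFP57.

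Divergent gene starts, 2 protein-coding genes on opposite strands with starts within 1 kb, were nearest to 7 of 140 lone gene start sites (5.00%, interval 2.44 to 9.96%) and 33 of 2033 Suz12-associated ones (1.62%, interval 1.16 to 2.27%; odds ratio 3.19, Fisher's exact test, adjusted p = 0.0140). The share over all protein-coding gene starts was not computed, so which of the 2 values departs from it is unknown. Among the sites with p-values up to 1e-12, which include 19 lone gene start sites, the odds ratio was 3.94 (Fisher's exact test, p = 0.243). Lone sites also sat closer to the start itself, as their centers lay a median of 120.5 bp downstream (quartiles 75 bp upstream and 262 bp downstream) and those of Suz12-associated sites 304 bp (quartiles 57 and 557 bp), a difference given without a test.

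Few lone sites had an H3K27me3-depleted site within 2 kb, but the selection of lone sites bears on this count. That selection leaves out every Pcl3 site with a Suz12 center within the same 2 kb. The paper reports that most sites with decreased H3K27me3 on Pcl3 knockdown also had reduced Suz12 binding. A low count near lone sites can thus be built in by the selection. The tests below cannot separate H3K27me3 loss from that selection, and no conclusion is drawn from them. Of all 5242 Pcl3 sites, 8.97% had an H3K27me3-depleted site within 2 kb. The lone sites contributed 12 of these (1.32%, interval 0.758 to 2.30%) and the Suz12-associated sites 458 (10.6%, interval 9.69 to 11.5%; odds ratio 0.113, Fisher's exact test, adjusted p = 2.59e-25). The size of the difference depended on the distance allowed, as the odds ratio was 0.622 within 10 kb (94 lone and 679 Suz12-associated sites, Fisher's exact test, p = 2.89e-05) and 0.0305 for a shared base (3 and 425 sites). A single site of the 12 was more than 10 kb from Suz12, at chr10:84320701-84321500 in an intron of Ric8b (deposited p-value 4.24e-18). The other 11 lay 2025 to 4875 bp from a Suz12 center, and the genes nearest to them included Sox9, Gsx1, Galntl1, Hoxc4, Igdcc3, Msx3, Onecut2, Nr2e1 and Hoxb9. The H3K27me3-depleted list has 29.2% of its sites on chromosome 11, and outside that chromosome the shares were 1.17% of lone and 8.34% of Suz12-associated sites.

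By gene, 190 of 22367 protein-coding genes (0.849%) had a lone site within 2 kb of their start, and 2308 (10.3%) had a Suz12-associated site there. Of 40 Hox genes, 2 (5%) had a lone site (Hoxd4, 685 bp from the start, deposited p-value 9.22e-21, and Hoxc4, 1208 bp from the start, deposited p-value 1.06e-10) and 18 a Suz12-associated one. A gene can be in both counts, as Hoxc4 was, with a Suz12-associated site 817 bp from its start. Of 130 developmental transcription factors from the Pax, Sox, Fox, Tbx, Lhx, Dlx and related families, 1 (0.769%) had a lone site, Dlx1 (1770 bp from the start, deposited p-value 8.22e-08), and 77 a Suz12-associated one. Immediate early genes, which answer growth signals within minutes, had 0 and 12 of 22.

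Counted by nearest gene instead, Hox genes were nearest to 30 lone sites (3.31%) and 61 Suz12-associated sites (1.41%). Each site counts once whatever its width, and Suz12-associated sites reach 81300 bp in the Hoxb cluster and 29100 bp in the Hoxc cluster. The Hox shares are therefore not of like units. Developmental transcription factors were nearest to 58 lone sites (6.39%) and 286 Suz12-associated sites (6.60%), nearly equal shares. Pluripotency network genes were nearest to 3 lone sites (0.331%) and 14 Suz12-associated sites (0.323%). Nearest genes were 616 in all, and 461 of them were nearest to a single lone site.

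Housekeeping lists had few sites of either kind at their starts. Over all protein-coding genes the share was 0.849% for lone sites and 10.3% for Suz12-associated sites. Counts of 0 or 1 lone site in these lists lie near that share and are no result about lone sites. Among 83 cytoplasmic ribosomal protein genes, 35 aminoacyl-tRNA synthetases, 50 splicing factors and 87 respiratory chain genes, 0 had a Pcl3 site of either kind within 2 kb of the start. Of 51 proteasome genes, 0 had a lone site and 1 a Suz12-associated one. Mitochondrial ribosomal proteins had 1 lone site in 77 genes, Mrpl23 (496 bp from the start, deposited p-value 4.06e-09), and replication-dependent histones 1 in 67, Hist3h2a (1012 bp, deposited p-value 5.67e-11). Of 371 Zfp genes for zinc finger proteins, 4 (1.08%) had a lone site and 17 (4.58%) a Suz12-associated one.

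Within 2 kb of their starts, the listed genes of ESC identity and Polycomb had no lone site. Sfmbt2 and Otx2, described above, were in none of these lists. PRC2 and Polycomb-like genes had 0 lone sites and 1 Suz12-associated site among 11, PRC1 genes 0 and 6 among 19, and the pluripotency network 0 and 1 among 22. Olfactory receptors, which are silent in ESCs, had 0 and 1 among 1087. MicroRNA genes had 3 lone sites among 1577, at Mir1897, Mir196a-1 and AC122860.1, and 53 had a Suz12-associated site. Mir196a-1 and AC122860.1 also had a Suz12-associated site within 2 kb. The share of genes with a lone site is so low over the genome that counts of 0 and 1 in lists of this size lie near it.

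Lone sites were present on all chromosomes, with an excess on chromosome Y. It held 7 of the 907 lone sites and 1 of the 4335 Suz12-associated sites (adjusted p = 0.000650, Fisher's exact test, adjusted over chromosomes), and no other chromosome passed the test, the next being chromosomes 11 and 14 at adjusted p = 0.170. Of these 7, 6 lay within chrY:2881301-2892800, and with neighbours within 10 kb counted once no chromosome passed. Few sites were mostly repeated sequence, but some repeated sequence was more frequent at lone sites. No sampled 30-base word of the central 500 bp was repeated in the genome at 681 lone sites (75.1%) and 3901 Suz12-associated sites (90.0%), given without a test. At 7 lone sites (0.772%) and at 10 Suz12-associated sites (0.231%), at least 50% of these words occurred more than once in the genome (odds ratio 3.36, Fisher's exact test, adjusted p = 0.0178). Within deciles of CpG density the odds ratio was 1.97 (p = 0.159, n = 5242), within deciles of width 2.12 (p = 0.160), and with p-values up to 1e-12 there were 0 such lone sites. The 7 repeated sites were not on chromosome Y, and the part of unique alignment in these counts was not tested.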

How the data were processed

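ChIP-seq of Pcl3-TAP, Suz12-TAP and H3K27me3 in mouse ESCs was analysed from the site lists the authors deposited. Per the paper and the submitters' processing notes, 30-base reads were aligned to mm9 with Bowtie (version not given in the sources used here), only unique alignments were kept, backgrounds were equalized, and 400 bp windows were tested with the Skellam distribution and joined. The deposited value is 1 p-value per site as recomputed by the authors, without reads or depth, so counting error per site is unknown. Whether the 2 Pcl3 libraries were pooled is not stated. The p-values of the H3K27me3-depleted and Suz12-depleted lists were not used.

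Distances were taken between centers, and coordinates are 1-based in mm9. Genes were taken from GENCODE vM1, and sequences from the NCBIM37 genome (none of chromosome 18 is printed). Features were compared by Fisher's exact tests (two-sided) over sites, with Wilson 95% intervals and Benjamini-Hochberg adjustment over 8 tests, over 11 motifs or over chromosomes. Mantel-Haenszel odds ratios used deciles. Where sites cluster, p-values over sites are too small. The planned count of soft-masked bases was not possible, since the genome file marks none, and copies of 30-base words were counted instead. The named sites were the 12 lone sites of smallest p-value, the 5 widest, the 5 farthest from Suz12 with a p-value of at most 1e-12, the 3 nearest the limit on each side, and the genes of the lists. The members, lists, motifs and tests were chosen with earlier results of these data known. Overlap and stratification functions were tested on simulated data. Fisher's tests ran in scipy 1.17.1 and Mantel-Haenszel estimates in statsmodels 0.14.6 (Python 3.11.15, pandas 2.3.3), sequences were read with pysam 0.24.0 and samtools 1.23.1, words were counted with numba 0.67.0, and figures were drawn with matplotlib 3.10.9. A few items that these rules select are not reported here.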

Additional observations from a re-analysis of the deposited data

How the results depend on the processing

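Of 93 repeats of the share comparisons under other settings, 88 kept their direction and their side of the threshold. The lower gene start share lost significance within deciles of CpG density (odds ratio 0.826). The divergent pair share did so with p-values of at most 1e-12 (3.94). The repeated sequence share did so within deciles of width (2.12) and of CpG density (1.97), and turned to an odds ratio of 0 with p-values of at most 1e-12, where 0 lone sites were repeated. The number of chromosomes past the threshold, 1, was 2 when only a shared base defined Suz12 association, and 0 with p-values of at most 1e-12, with neighbours counted once or without chromosomes X and Y. The number of motifs past the threshold over all sites, 5, was 8 with neighbours counted once, 7 with no Suz12 center within 5 or 10 kb or with the central 1000 bp, and 6 with no shared base as the sole rule or without chromosomes X and Y. The causes were not tested. Requiring no Suz12 center within 5 or 10 kb left 562 or 470 lone sites, and moved the odds ratio of CpG islands from 0.109 to 0.235 and 0.299, and that of gene starts from 0.207 to 0.388 and 0.499. With no shared base as the sole rule, 1213 sites were lone. No paired analysis was possible because there is 1 Pcl3 list for 2 libraries and no list has replicate columns. The depth of the Suz12 library, which is unknown here, limits what a missing Suz12 site shows.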
